A study of Mus musculus with 2 samples.

Results

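The S100 genes measured here encode small calcium-binding proteins of immune and stromal cells. The family was taken as S100a1, S100a4, S100a6, S100a8, S100a9, S100a10, S100a11 and S100a13, matched by gene symbol, and these are 8 of the 31053 genes counted. All 8 were found, each under 1 gene ID. The tumours had been grown under the skin of C57BL/6 mice from MTC-Q1, an oral cancer cell line of the mouse. The WT group carried unmodified MTC-Q1 cells and the miR21 KO group carried MTC-Q1 cells lacking miR-21. Every tumour in both groups had grown for 2 weeks and had been exposed to cisplatin, 5 mg/kg, for 72 hours, so no untreated sample exists for comparison. Tumours were dissociated, dead cells were depleted and CD45-positive cells were enriched on microbeads before droplet capture. The labels give 1 library per group, and nothing says how many mice each library holds or whether the knockout line is 1 clone.

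Each barcode carries a library number, and no source used here says which number is WT and which is miR21 KO. The libraries are called library 1 and library 2 throughout, and no direction between WT and miR21 KO can be read from any value. The counted features include no miR-21 gene, and the knockout was not checked here. With 1 library per group there is no replicate check and no test. Values are UMIs, that is, counted mRNA molecules, summed over the cells of a gate and given as counts per 1000000 UMIs of that gate (CPM). Intervals are exact 95% Poisson intervals and cover counting error only, not the spread between animals.

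S100 proteins fold around a pair of EF-hands, the helix-loop-helix units that hold calcium, and work mostly as dimers. Calcium opens a surface on the dimer that grips target proteins such as annexins, myosins and ubiquitin ligase adaptors. S100a8 and S100a9 pair as calprotectin, a metal-binding antimicrobial complex abundant in neutrophils and in monocytes, and act outside the cell on Tlr4 and Ager. S100a4 is known for binding non-muscle myosin in migrating cells, S100a6 for binding calcyclin-binding protein, and S100a10 and S100a11 for pairing with annexins A2 and A1. S100a10 is the family member that no longer needs calcium. S100a13 takes part in the export of Fgf1 and Il1a, and S100a1 is best known for calcium handling in muscle.

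All 8 genes lie on chromosome 3 of GRCm38 (mm10), in 2 groups. S100a1 (chr3:90511034-90514392, minus strand), S100a13 (chr3:90514435-90524581, plus), S100a4 (chr3:90603771-90606045, plus), S100a6 (chr3:90612882-90624181, plus), S100a8 (chr3:90668978-90670035, plus) and S100a9 (chr3:90692632-90695721, minus) form the first. S100a11 (chr3:93520488-93526287, plus) and S100a10 (chr3:93555080-93564643, plus) lie 2824766 bases further on. In the GENCODE M21 transcript numbered 201 of each gene, S100a13 has 4 exons and each of the other 7 genes has 3. That number does not mark a main transcript. The S100a13 transcript has 160 codons, against 89 (S100a6 and S100a8) to 113 (S100a9) in the others. S100a1 and S100a13 start head to head on opposite strands with 42 bases between their gene models, and the strand used in counting is not stated, so their counts are uncertain where a read reaches past either model. S100a3 and S100a5 are the nearest neighbours of S100a4 and S100a6, with gene models that do not overlap theirs. GENCODE lists a pseudogene of S100a11, S100a11-ps, which is not among the counted features, so reads shared with it may be missing from or counted for S100a11.

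The C-terminal calcium loop of each member is printed here. It is 12 codons long, and the codons of loop positions 1, 3, 5 and 12, which hold the calcium, are in capitals. The bases are read 5′ to 3′ from the transcript numbered 201 of each gene.
S100a1: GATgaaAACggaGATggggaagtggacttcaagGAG
S100a4: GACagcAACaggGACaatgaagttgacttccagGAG
S100a6: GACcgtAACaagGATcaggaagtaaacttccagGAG
S100a8: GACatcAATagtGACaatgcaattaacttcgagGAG
S100a9: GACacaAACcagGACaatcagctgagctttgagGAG
S100a10: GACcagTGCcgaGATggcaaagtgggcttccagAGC
S100a11: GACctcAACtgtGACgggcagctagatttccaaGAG
S100a13: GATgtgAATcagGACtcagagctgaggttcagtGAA
In 7 members the loop was located by a pattern that requires a calcium-holding residue at each of these positions. Their 4 of 4 positions therefore follow from the search. No stretch of S100a10 fitted the pattern. Its loop was located by alignment with that of S100a6, and a calcium-holding residue stood at 2 of 4 positions. Over whole coding sequences S100a4 and S100a6 were the most alike pair, at 69.3% identical bases of 267 aligned.

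Promoter windows are shown for the calprotectin pair, S100a8 and S100a9, and for the pair most alike in coding sequence, S100a4 and S100a6. RefSeq windows on GRCm38.p6 (250 bases before and 50 after the annotated start, gene strand, 5′ to 3′) exist here for 7 members, all but S100a10. Capitals mark matches, on either strand, to 6 motifs: the TATA box TATAAA, the CCAAT box CCAAT, the GC box GGGCGG, the AP-1 site TGANTCA, the C/EBP site TTGCNNAA and the PU.1 site GAGGAAGT. The matches in the windows printed do not overlap one another.
S100a8: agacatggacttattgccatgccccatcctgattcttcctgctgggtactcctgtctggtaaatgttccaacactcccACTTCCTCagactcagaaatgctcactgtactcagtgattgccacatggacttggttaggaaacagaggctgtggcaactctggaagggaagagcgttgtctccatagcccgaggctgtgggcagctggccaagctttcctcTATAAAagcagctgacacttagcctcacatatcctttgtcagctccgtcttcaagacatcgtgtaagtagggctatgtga
S100a9: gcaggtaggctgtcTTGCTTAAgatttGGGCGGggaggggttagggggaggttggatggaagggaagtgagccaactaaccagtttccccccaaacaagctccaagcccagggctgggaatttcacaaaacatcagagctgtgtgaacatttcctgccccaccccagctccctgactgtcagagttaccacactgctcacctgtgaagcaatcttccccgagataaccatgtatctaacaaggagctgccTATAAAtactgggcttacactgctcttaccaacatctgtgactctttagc
S100a4: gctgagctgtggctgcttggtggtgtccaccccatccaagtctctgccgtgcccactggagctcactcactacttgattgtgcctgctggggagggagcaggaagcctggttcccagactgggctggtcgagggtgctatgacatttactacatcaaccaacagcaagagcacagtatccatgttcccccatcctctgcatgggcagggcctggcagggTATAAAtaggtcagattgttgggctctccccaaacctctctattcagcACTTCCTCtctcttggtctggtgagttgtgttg
S100a6: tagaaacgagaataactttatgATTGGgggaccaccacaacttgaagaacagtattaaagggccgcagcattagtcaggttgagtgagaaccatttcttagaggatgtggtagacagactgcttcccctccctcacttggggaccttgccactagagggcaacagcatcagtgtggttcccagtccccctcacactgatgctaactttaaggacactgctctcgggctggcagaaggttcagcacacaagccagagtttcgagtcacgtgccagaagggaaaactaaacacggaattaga
The S100a8 window (chr3:90668821-90669120) held TATAAA from base -30 to -25 and a PU.1 match on the minus strand. The S100a9 window (chr3:90695672-90695971) held TATAAA from base 1, together with a C/EBP and a GC box match. The S100a4 window (chr3:90603520-90603819) held TATAAA from -31 to -26 and a PU.1 match on the minus strand, and the S100a6 window (chr3:90612644-90612943) held a CCAAT match on the minus strand. Among all RefSeq windows of this length 13.6% held TATAAA, 3.2% the PU.1 letters, 10.8% the C/EBP letters, 35.7% the GC box, 37.4% the CCAAT box and 7.81% the AP-1 letters. These are matches of letters, not sites shown to be bound.

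The libraries held 5320 and 7194 barcodes with 57488236 and 149734240 UMIs, a median of 7169 and 15248 UMIs per barcode. After filters 4977 and 6741 cells remained, with median mitochondrial shares of 3.98% and 2.09%. Cells were sorted into gates by summed marker UMIs, and 9.28% and 10.6% stayed unassigned. The library 1 and library 2 gates held 2673 and 54 naive-type T cells (Ccr7, Lef1 and other markers), 213 and 711 CD8 T cells that were not naive-type, 147 and 74 regulatory T cells, 254 and 654 other T cells and 137 and 987 NK cells. They held 349 and 1918 macrophages, 114 and 768 monocytes and 83 and 505 Ptprc-low cells, which have almost no transcript of Ptprc, the gene of CD45 (6.48 and 5.08 CPM). The macrophage list reached 17914 and 24440.4 CPM in macrophages against 585 and 901 CPM in monocytes. The T cell list reached 4260.5 and 4636 CPM in T cells against 627 and 699 CPM in NK cells. The gates were set from these lists or from genes of them, so these contrasts follow from the rule and do not check it. Not every list kept to its gate. The monocyte list stood at 15334 and 10603 CPM in monocytes and at 11011 and 9134 CPM in interferon-producing dendritic cells (pDC). Free RNA was traced by C1q and collagen UMIs in gates that should lack them: the larger tracer stood at 2.02% and 2.53% of its library-wide level in T cells and at 1.02% and 2.62% in NK cells. The libraries shared 8 barcode sequences.

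Among the 9 gates with at least 50 cells in each library, 6 of the 8 members had the same leading gate in both libraries, where 60.9% of 9426 genes of at least 10 CPM did. Ptprc-low cells led for S100a4, S100a6, S100a10, S100a11 and S100a13, and monocytes for S100a8. S100a1 was led by Folr2- macrophages in library 1 (62.3 CPM, 95% interval 55.5 to 69.8) and by Folr2+ macrophages in library 2 (91.4 CPM, 87.2 to 95.7). In library 1 these 2 macrophage gates did not differ beyond counting error. S100a9 had no UMI in any of the 9 gates of library 1 and was led by monocytes in library 2. Leaving Ptprc-low cells aside, monocytes were the leading leukocyte gate for S100a4, S100a6, S100a8, S100a10 and S100a11 in both libraries.

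**Figure D1:**
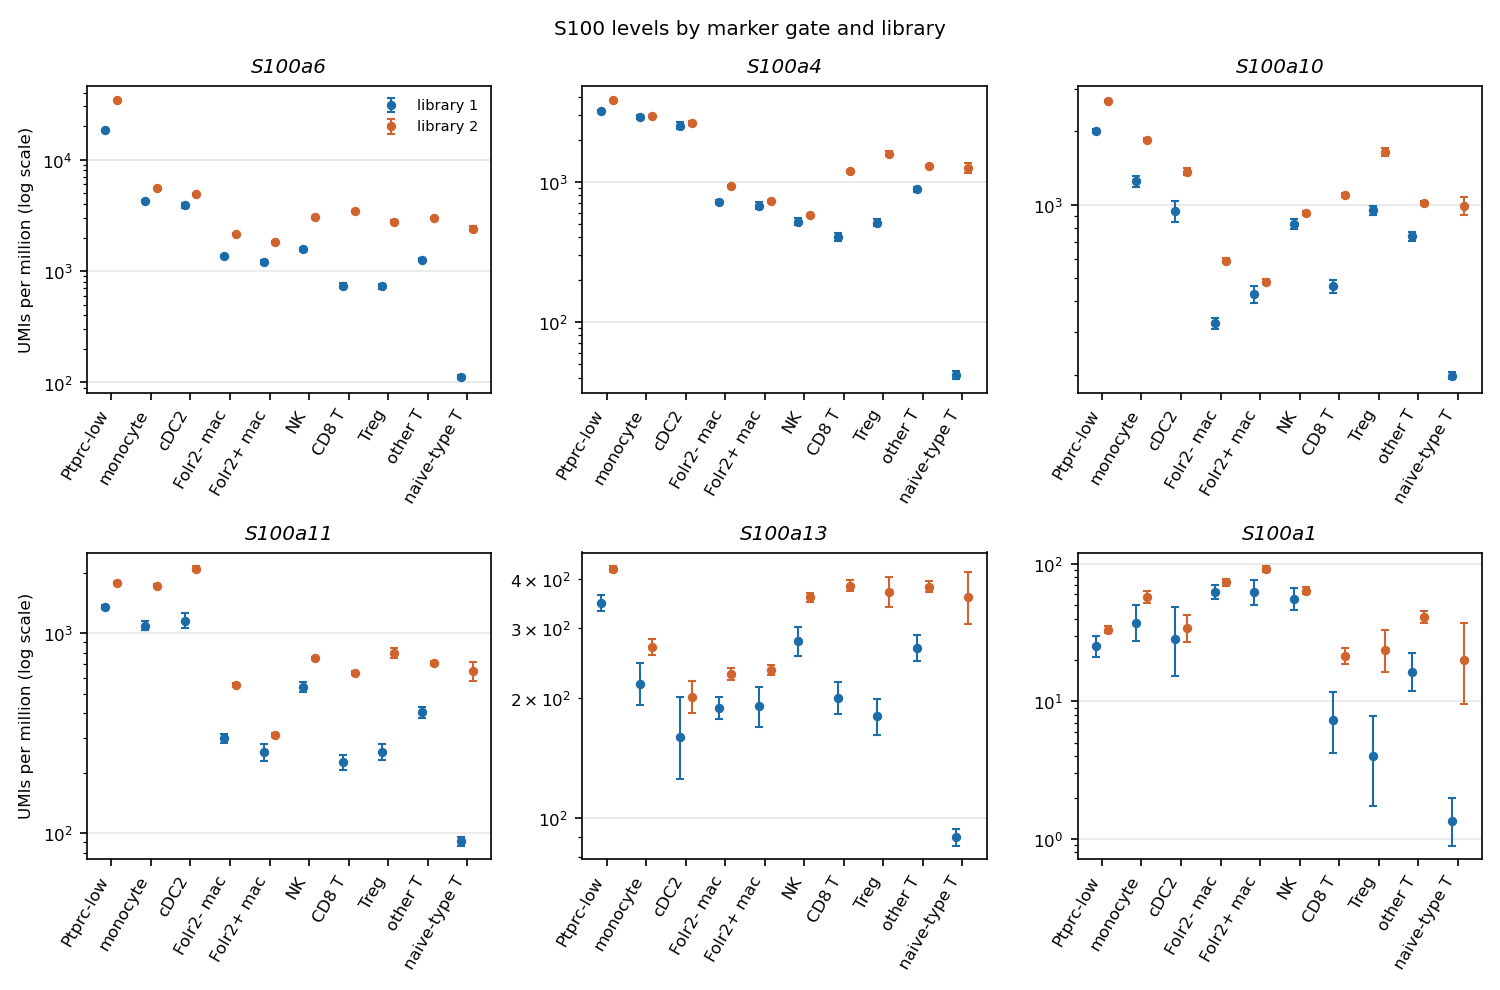
CPM (log scale, 95% Poisson bars) for the 6 members present in most gates, in 10 gates of library 1 (blue) and library 2 (orange). Ptprc-low cells are highest for S100a6 in both libraries, naive-type T cells are lowest in library 1 for all 6 genes, and for S100a1 the 2 macrophage gates are highest in both libraries.

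S100a6, which binds the adaptor Cacybp of a ubiquitin ligase, stood at 18492 CPM (library 1) and 34266 CPM (library 2) in Ptprc-low cells. The next gate, monocytes, stood at 4239 CPM (library 1) and 5553 CPM (library 2). cDC2, the dendritic cells that present antigen to CD4 T cells, stood at 3884 and 4949 CPM, and NK cells at 1561 and 3056 CPM. Macrophages were lower, at 1369.8 and 2167 CPM in Folr2- and 1213 and 1829 CPM in Folr2+ cells. In both libraries the interval of Ptprc-low cells lay above that of every other gate. Ptprc-low cells were 1.67% and 7.49% of the cells and held 9.84% and 23.6% of all UMIs, and they held 72.1% and 73.1% of all S100a6 UMIs. Nearly every Ptprc-low cell carried the transcript: after thinning to 4000 UMIs per cell, 98.8% and 99.8% had at least 1 S100a6 UMI (98.8% and 100% unthinned). The 10th percentile of S100a6 per cell was 59.6 and 89.4 UMIs per 10000 of the cell, and the 90th was 339.9 and 573.

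S100a4, the myosin-binding member, was more even between Ptprc-low cells and myeloid cells. It stood at 3193 CPM (library 1) and 3819 CPM (library 2) in Ptprc-low cells, at 2925 CPM (library 1) and 2936 CPM (library 2) in monocytes and at 2515 and 2627 CPM in cDC2. The monocyte values did not differ between libraries beyond counting error. Macrophages stood at 709 and 816 CPM and NK cells at 518 and 579 CPM. pDC, the interferon-producing dendritic cells, were low at 13.1 and 249 CPM, from 19 and 38 cells. Ptprc-low cells held 44.96% and 48.6% of all S100a4 UMIs.

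Set against all gated leukocytes together, Ptprc-low cells were past 2-fold higher for 5 of 6 measured members in library 1 and for 4 of 8 in library 2. Past 2-fold means a ratio of at least 2 whose exact 95% interval excludes 1.5-fold, among genes with at least 100 UMIs in the 2 groups compared. The share of all genes past that limit was 25.8% of 10914 in library 1 and 21.1% of 12360 in library 2. The ratio was 26.0-fold and 11.9-fold for S100a6, 8.04-fold and 3.47-fold for S100a4, 5.24-fold and 3.03-fold for S100a10, and 5.62-fold and 2.43-fold for S100a11. S100a13 was 2.48-fold higher in library 1 and only 1.41-fold higher in library 2. S100a8 and S100a9 were the 2 members past 2-fold lower in Ptprc-low cells, in library 2, where 24.6% of genes were. No member was lower in library 1, where 22.3% of genes were. The leukocyte side of library 1 is mostly naive-type T cells and that of library 2 is not, so the 2 sets of ratios have different denominators.

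Ptprc-low cells were not of 1 kind. The fibroblast list (Col1a1, Dcn, Pdgfra and others) reached 10925 and 5089 CPM, and the epithelial list (keratins, Epcam, Cdh1 and others) 43.96 and 5.55 CPM, with 3 and 5 of its 10 genes at 0. The data do not name the gate as tumour or stroma, and the cells are called by their rule. They were divided at 30 and 150 fibroblast list UMIs per 10000 into a low (15 and 229 cells), a middle (35 and 231) and a high collagen range (33 and 45), with 9 and 63 cells within a factor of 1.2 of the lower limit and 11 and 12 of the upper one. These are ranges of 1 score, set after the data were seen, and not cell types. Their median UMIs per cell fell from 101241 and 83836 in the low range to 38917 and 28235 in the high one, and cycling markers from 662 and 1197 CPM to 79.3 and 142 CPM.

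The members did not follow the collagen ranges alike. S100a4 was highest in the middle range, at 4588 and 5273 CPM, against 2186 and 3274 CPM in the low and 1806 and 683 CPM in the high range. S100a6 was lowest in the high range of both libraries, at 15607 and 13519 CPM, against 20032 and 36154 CPM in the middle one. S100a10 was lower at each step, from 2523 and 2939 CPM through 2010.0 and 2391 CPM to 1456 and 1306 CPM. S100a13 was higher at each step, from 197 and 343 CPM through 361 and 544 CPM to 477 and 581 CPM. S100a10 and S100a13 thus ran in opposite orders in both libraries. S100a1 was at 20.99 and 21.9 CPM in the low and 36.7 and 92.4 CPM in the high range. S100a11 had no common order in the libraries: the high range was the highest of library 1 (1441 CPM) and the lowest of library 2 (1318 CPM). In the high range of library 2 a single cell held 29.1% of the S100a4 UMIs, and the level without it was 514 CPM. In the high range of library 1 a single cell held 26.3%, and the level without it was 1387 CPM. In the low range of library 1, of 15 cells, a single cell held 28.7% of the S100a4 UMIs, and the level without it was 1710 CPM. Single cells there also held 22.1% of the S100a6, 24.6% of the S100a13 and 20.7% of the S100a1 UMIs. The part of depth and cycling in these differences was not tested.

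**Figure D2:**
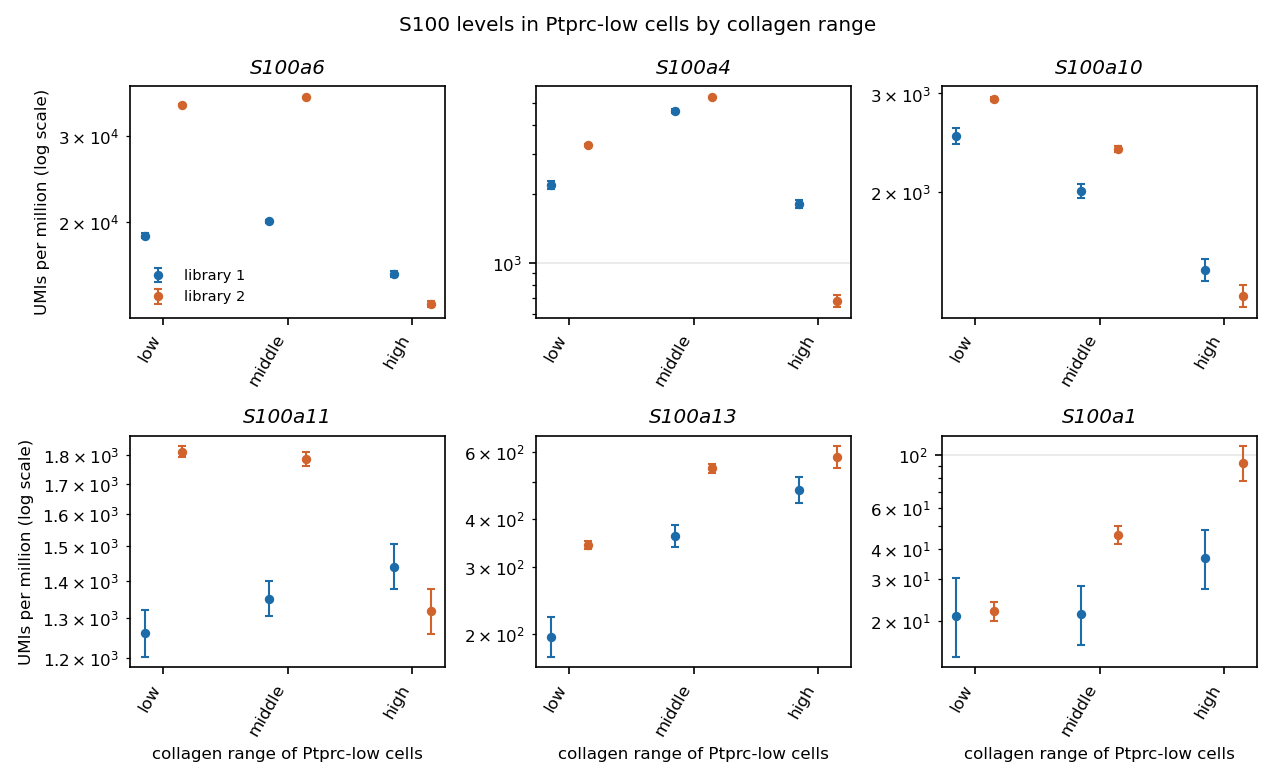
CPM (log scale, 95% Poisson bars) for 6 members in Ptprc-low cells of the low, middle and high collagen range, library 1 in blue and library 2 in orange. S100a4 peaks in the middle range of both libraries, S100a10 is lower and S100a13 higher from left to right, and S100a11 takes opposite orders in the libraries.

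S100a10 and S100a11, the annexin partners, shared the order Ptprc-low cells, then monocytes, among the 9 gates. S100a10 stood at 2001 CPM (library 1) and 2677 CPM (library 2) in Ptprc-low cells and at 1249 CPM (library 1) and 1846 CPM (library 2) in monocytes. Regulatory T cells were the highest lymphoid gate for S100a10, at 948 and 1645 CPM. S100a11 stood at 1351 CPM (library 1) and 1781 CPM (library 2) in Ptprc-low cells and at 1094 CPM (library 1) and 1731 CPM (library 2) in monocytes. In library 2, where dendritic cell gates held at least 54 cells except for pDC, S100a11 was as high as in Ptprc-low cells or higher: 2099.6 CPM in cDC2, 1919 CPM in cDC1, the dendritic cells that cross-present antigen, and 1802 CPM in migratory dendritic cells. S100a10 did not share this, with 389.6 CPM in cDC1 and 520.4 CPM in migratory dendritic cells. S100a4 was also low in cDC1 of library 2, at 373 CPM. The collagen tracer in cDC2 of library 2 stood at 19.7% of its library level, against 1.39% in cDC1, and its part in the cDC2 values was not tested.

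Anxa2, which forms a tetramer with S100a10, stood at 969 and 1257 CPM in monocytes, 194 and 315 CPM in Folr2- macrophages and 1135 and 1259 CPM in Ptprc-low cells (library 1 and library 2). Anxa1, the partner of S100a11, stood at 229 and 277 CPM in monocytes and 733 and 696 CPM in Ptprc-low cells. Of 9 annexin and plasminogen system genes, 3 of 8 measured were past 2-fold higher in monocytes than in macrophages in each library: Anxa1, Anxa2 and Plaur, the urokinase receptor. The share of all genes was 3.55% and 3.93%. Plau, urokinase itself, was past 2-fold lower in monocytes of library 2, where 18.7% of all genes were, and none of the 8 was in library 1 (9.01%).

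Monocytes exceeded macrophages for most members. Of the measured members, 4 of 6 in library 1 and 6 of 8 in library 2 were past 2-fold higher in monocytes, where 3.55% of 6527 and 3.93% of 9896 genes were. The members' median log2 ratio was 1.75 and 1.52, against -0.188 and -0.423 over all genes. S100a4 was 4.13-fold and 3.60-fold higher, S100a11 3.81-fold and 4.19-fold, S100a10 3.56-fold and 3.49-fold, and S100a6 3.18-fold and 2.81-fold. S100a13 was 1.15-fold higher in both, which in library 1 did not exceed counting error. S100a1 went the other way, 1.66-fold and 1.47-fold lower in monocytes and not past the limit. Past the limit on that side were 9.01% and 18.7% of genes and no member. After thinning, 99.1% and 98.8% of monocytes had an S100a4 UMI (99.1% and 99.6% unthinned), against 65.9% and 72.3% of macrophages (85.7% and 92.7% unthinned).

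Folr2+ macrophages, a subset often resident in tissue, and Folr2- macrophages differed little. In library 2, S100a11 was 1.78-fold higher in Folr2- cells, S100a4 1.27-fold and S100a10 1.22-fold. In library 1 S100a10 went the other way, 1.31-fold lower in Folr2- cells. S100a8 and S100a9 were the 2 of 8 members past 2-fold higher in Folr2- cells of library 2, where 1.13% of genes were, and single cells held 62.7% and 71.5% of those UMIs.

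S100a1 and S100a13 had patterns of their own. S100a1, the calcium-cycling member, was highest in macrophages, at 62.3 CPM (library 1) and 83.8 CPM (library 2), followed by NK cells at 55.6 and 63.8 CPM and monocytes at 37.4 and 57.1 CPM. It was at 7.30 and 21.4 CPM in CD8 T cells and at 1.36 CPM in naive-type T cells of library 1. In pDC 0 UMIs were found in library 1, which allows up to 13.1 CPM at 3 counts, and 16.8 CPM in library 2. S100a13, the export factor, spanned the narrowest range among these gates outside naive-type T cells. It stood at 348 CPM (library 1) and 422 CPM (library 2) in Ptprc-low cells, at 278 and 359 CPM in NK cells, at 189.7 and 233 CPM in macrophages and at 217 and 269 CPM in monocytes. Its cargo genes were scarce: Fgf1 stood at 1.57 and 0.568 CPM in Ptprc-low cells and Il1a at 1.63 and 14.8 CPM in monocytes.

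S100 levels differed widely between the T cell subsets of library 1. Other T cells, which carry neither naive, CD8 nor Foxp3 markers at the gate limits, exceeded naive-type T cells past 2-fold for 5 of 5 measured members, where 14.4% of 8196 genes did. S100a4 was 21.1-fold higher (881 against 41.8 CPM), S100a6 11.3-fold (1268 against 112 CPM), S100a11 4.43-fold, S100a10 3.74-fold and S100a13 2.99-fold. For S100a6, CD8 T cells and regulatory T cells of library 1 lay between, at 742 and 729.9 CPM. In library 2 other T and naive-type T cells lay much closer. S100a4 stood there at 1301 and 1253 CPM, S100a6 at 2983 and 2407 CPM, S100a10 at 1015 and 989 CPM and S100a13 at 382 and 359 CPM. The naive-type gate of library 2 held only 54 cells, of another makeup, as given below. Free RNA at the traced rate would give 54.6 CPM of S100a6 in naive-type T cells of library 1, 48.7% of the level found there, and 15.1 CPM of S100a4, 36.1% of its level. An S100a6 UMI was found in 24.8% of B cells of library 1 after thinning (31.8% unthinned), and in them free RNA would give 115 of 142 CPM of S100a6. In naive-type T cells of library 1 it would cover 5.93% of S100a10 and 8.46% of S100a11.

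Between the libraries, all 8 members were past 2-fold higher in T cells of library 2, where 21.1% of 10054 genes were higher in library 2 and 30.1% differed in either direction. Apart from S100a8 and S100a9, the ratios ran from 3.11-fold (S100a13) to 9.99-fold (S100a6). The members' median log2 ratio of library 1 over library 2 was -2.92, against -0.216 over all genes. The pooled T gate was 2673 naive-type cells of 3287 in library 1 and 54 of 1493 in library 2. It thus mixes subset makeup with level, and values within subsets follow. The subsets differed inside as well. From library 1 to library 2 the naive T list went from 1044 to 402 CPM in CD8 T cells that were not naive-type. It went from 2748 to 611 CPM in regulatory T cells and from 896 to 315 CPM in other T cells. Cycling markers went from 413 to 1028, from 522 to 925 and from 627 to 907 CPM in these 3 gates. The part of this makeup in the ratios was not tested.

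In CD8 T cells that were not naive-type, 7 of 8 members were past 2-fold higher in library 2, where 5.40% of 7575 genes were. The level of S100a6 was 742 CPM (95% interval 707 to 777) for library 1. For library 2 it was 3489.7 CPM (3455 to 3525), 4.71-fold higher. S100a4 stood at 406 and 1187 CPM (2.93-fold), S100a11 at 227 and 630.5 CPM (2.78-fold) and S100a10 at 462 and 1096 CPM (2.37-fold). S100a13 fell short of the limit, at 1.92-fold. S100a1, with 17 and 236 UMIs, was 2.94-fold higher. One cell of library 2 held 11.3% of the S100a6 UMIs of the gate, and the level without it was 3142 CPM. S100a8 and S100a9 had 0 UMIs in this gate of library 1 and 293 and 242 in library 2, most of the 311 and 253 of all T cells there. One cell held 49.5% of these S100a8 and 69.4% of these S100a9 UMIs. Without it 148 S100a8 UMIs, at least 10.4-fold against a floor of 3 counts, and 74 S100a9 UMIs remained, the latter under the minimum of 100.

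In regulatory T cells, marked by Foxp3, 4 of 5 measured members were past 2-fold higher in library 2, where 7.24% of 4021 genes were. S100a6 stood at 729.9 and 2779.8 CPM (3.81-fold), S100a4 at 512 and 1581 CPM (3.09-fold), S100a11 at 255 and 798 CPM (3.12-fold) and S100a13 at 180.2 and 371 CPM (2.06-fold). S100a10 was 1.74-fold higher. Other T cells differed least: 2 of 6 members, S100a6 (2.35-fold) and S100a1 (2.48-fold), were past 2-fold higher in library 2, where 2.10% of 7246 genes were. S100a4 was 1.48-fold higher there.

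The shares of T cells with the transcript differed as well as the summed levels. After thinning, an S100a6 UMI was found in 54.5% of CD8 T cells of library 1 and 97.6% of library 2 (69.5% and 100% unthinned), and in 22.3% and 88.9% of naive-type T cells (33.03% and 96.3% unthinned). The median naive-type T cell of library 1 had 0 S100a6 UMIs and that of library 2 had 20.8 per 10000. The makeup of the naive-type gate was not alike, so these cells are not a matched subset. Its naive T list was lower for library 2 (2619 against 4462 CPM). Higher there were its NK list (919 against 43.8 CPM), cycling markers (463 against 29.0 CPM) and regulatory T list (722 against 177 CPM). How far this makeup enters the S100a6 values was not tested. Median depth in the naive-type gate was 6216 and 7536 UMIs. Free RNA at the traced rate would give 314 of the 2407 CPM in naive-type T cells of library 2 and 284 of the 3489.7 CPM in CD8 T cells, so the tracers cover 13.05% and 8.14% of these levels. The 54 naive-type T cells of library 2 also carried Anxa2 at 391 CPM, against 17.2 CPM in library 1.

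Myeloid and NK gates differed less. In macrophages S100a8 and S100a9 were the 2 of 8 members past 2-fold between libraries, both higher in library 2, where 3.79% of 9981 genes differed in either direction and 1.43% were higher in library 2. In monocytes the same 2 of 8 members were past the limit, with a background of 2.87% of 5654 genes in either direction and 1.31% higher in library 2. The other 6 members were higher in library 2 by 1.15-fold (S100a4) to 1.51-fold (S100a10) in macrophages. In monocytes S100a4 did not differ beyond counting error (log2 library 1 over library 2 of -0.005, 95% interval -0.057 to 0.046), and S100a11 was highest of the 6 at 1.58-fold.

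In NK cells 0 of 6 measured members were past 2-fold, where 4.0% of 8174 genes were and 1.19% were higher in library 2. S100a6 lay just under the limit, at 1561 CPM (library 1) and 3056 CPM (library 2), 1.96-fold higher, and passed it with cells of 2 lineages kept, with a mitochondrial maximum of 5%, or with the highest doublet scores kept. A single NK cell of library 2 held 7.70% of the S100a6 UMIs, and the level without it was 2848 CPM. In Ptprc-low cells 0 of 6 members were past 2-fold, where 5.98% of 10134 genes were and 1.25% were higher in library 2. All 6 were higher in library 2, from 1.20-fold for S100a4 to 1.85-fold for S100a6. The makeup of this gate differed too, with 15 of 83 cells in the low collagen range of library 1 and 229 of 505 in library 2.

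**Figure D3:**
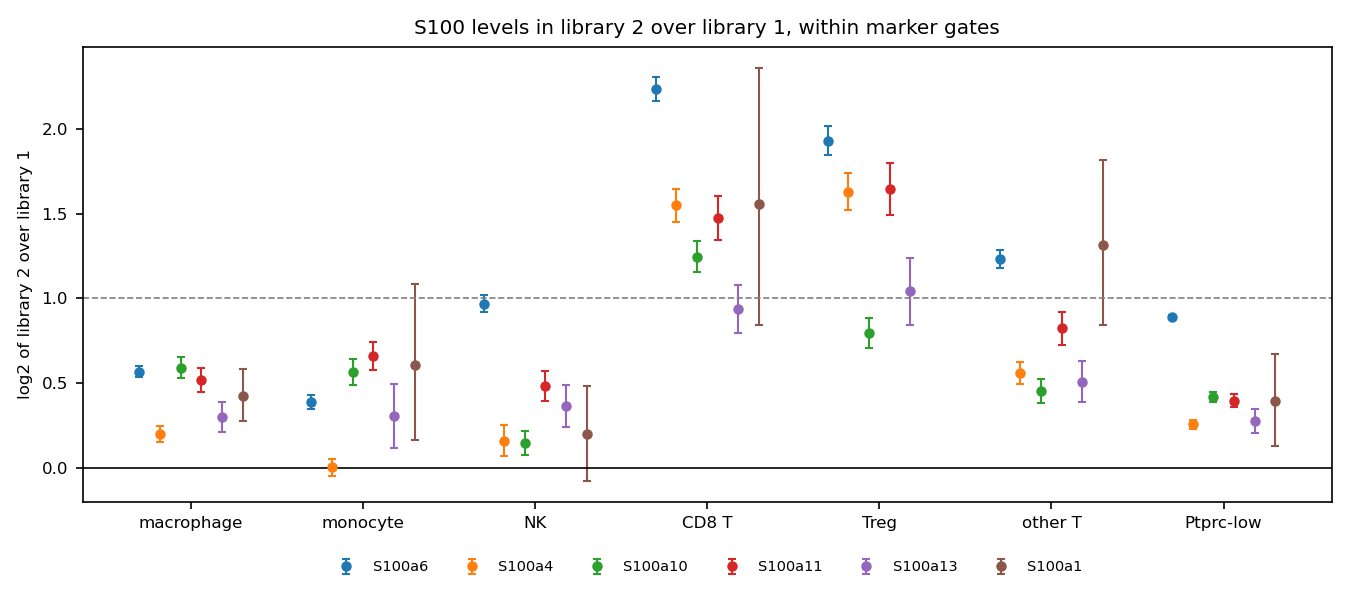
Log2 ratio of library 2 over library 1 with exact 95% intervals for 6 members in 7 gates; the dashed line marks 2-fold. CD8 T and regulatory T cells hold the largest ratios, up to 4.71-fold for S100a6, and S100a4 in monocytes lies on 0.

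S100a8 and S100a9, the calprotectin subunits, were found in few cells, nearly all of them in library 2. The matrix holds no barcode below 4166 UMIs (library 1) or 4810 UMIs (library 2), so cells with less RNA are not in these counts. Library 1 had 30 S100a8 UMIs in 19 of 4977 cells and 2 S100a9 UMIs in 2 cells. Library 2 had 2133 S100a8 UMIs in 193 of 6741 cells and 1747 S100a9 UMIs in 72 cells. The 20 cells richest in the pair held 89.7% of their UMIs in library 2, and the richest cell alone held 17.3%. In macrophages S100a8 was 13.8-fold higher in library 2 (8 against 597 UMIs). S100a9, with 0 and 427 UMIs, was at least 26.4-fold higher against a floor of 3 counts in the gate. In monocytes S100a8 was 3.88-fold higher and S100a9, with 0 and 217 UMIs, at least 13.1-fold. After thinning, an S100a8 UMI was found in 2.63% and 2.60% of monocytes (5.26% and 4.56% unthinned). Single cells held much of these sums. The richest monocyte held 43.8% of the S100a8 UMIs of its gate in library 1 and 32.6% in library 2, and 62.2% of the S100a9 UMIs of library 2. In macrophages of library 2 the richest cell held 47.4% of the S100a8 and 55.3% of the S100a9 UMIs.

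Ratios were taken again without the cell of each gate and library richest in the pair, an alternative chosen after the data were seen. S100a8 was then 9.44-fold higher in library 2 in macrophages and 4.62-fold in monocytes, the latter more than with all cells. S100a9 was at least 8.24-fold higher in macrophages, 4.90-fold in monocytes and 30.5-fold in T cells, against the same floor of 3 counts. The 82 S100a9 UMIs left in monocytes and 76 in T cells lay under the minimum of 100, so S100a9 was no longer counted there, which took the members past 2-fold from 2 to 1 in monocytes and from 8 to 7 in T cells.

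Most cells with either transcript had only 1 of them. Of 234 such cells in library 2, 162 had S100a8 only, 41 S100a9 only and 31 both, and of 21 in library 1 none had both. Most of these cells had too few UMIs of the pair to tell, since a cell with 1 UMI can show only 1 transcript. Of 52 cells with at least 3 UMIs of the pair in library 2, 30 had both and 22 S100a8 only. Cells with at least 10 UMIs of the pair, a group chosen by that sum, numbered 26, all in library 2, and each had both transcripts. They fell in many gates: 8 in T gates, 6 in macrophage gates, 6 in monocytes, 1 in cDC2 and 5 unassigned. The richest was the cDC2 cell, with 305 S100a8 and 366 S100a9 UMIs of 10246 and 20 UMIs of Retnlg, a gene of mature neutrophils. The next was a Folr2- macrophage with 283 and 236 UMIs, 41 of Retnlg and 113 of C1q. Of the 26, 11 had at least 10 Cd3 UMIs and 7 at least 10 C1q UMIs. A list of 14 neutrophil genes without S100 members was found in 25 of the 26, at 959 CPM against 106.5 CPM in the other cells of library 2. The share of those other cells with a UMI of the list was not taken. Mmp9 (6804) and Il1r2 (4707) had the most UMIs of the list in library 2, while Ngp had 1 and Camp 4. The list also stood at 590 CPM in cDC2, 332 CPM in migratory dendritic cells and 248 CPM in regulatory T cells of library 2. Csf3r, the receptor of the neutrophil growth factor, was in 18 and Retnlg in 7. Ly6g, the surface marker of mouse neutrophils, had 1 UMI in each library. Cells under the lowest UMI count of the matrix are absent from these values too. No gate of neutrophils was formed, and the part of neutrophil RNA or of joined cells in these values was not tested.

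**Figure D4:**
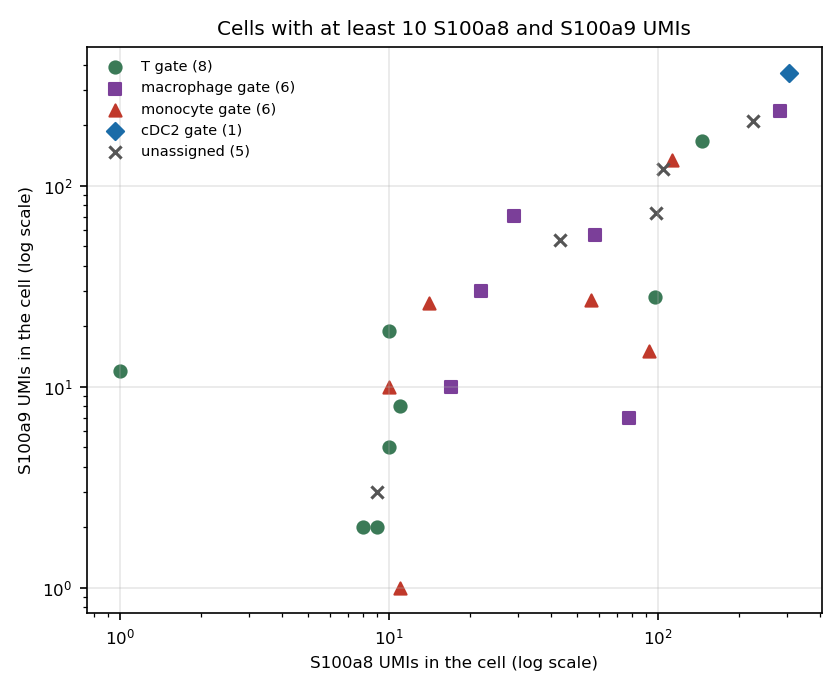
S100a8 against S100a9 UMIs (both axes log scale) in the 26 cells with at least 10 UMIs of the pair, all from library 2, marked by gate. Both transcripts are present in every cell, and cells from T, macrophage, monocyte and cDC2 gates and unassigned cells lie along the same spread, up to 305 S100a8 and 366 S100a9 UMIs.

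Across the 18 points of 9 gates and 2 libraries, several pairs of members had like patterns. As a description, with no test, Pearson r of log2(CPM + 1) was 0.915 for S100a4 and S100a6, 0.919 for S100a10 and S100a11, 0.927 for S100a6 and S100a11, and 0.899 for S100a8 and S100a9. It was 0.234 for S100a1 and S100a10 and 0.254 for S100a6 and S100a8. Points of 1 library share its depth and free RNA. Within gates, Spearman's rho over cells between S100a4 and S100a6 ranged from 0.288 to 0.705 in 7 gates of 2 libraries, highest in Folr2+ macrophages of library 1 (86 cells). Between S100a10 and S100a11 it ranged from 0.191 to 0.473, and between S100a11 and S100a13 from 0.021 to 0.274. Cells of a gate share depth and mixing with other cells, so these values describe the libraries only.

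Among 4865 genes of at least 50 CPM in a point, the genes closest in pattern over the same 18 points were as follows. S100a4 was closest to Cxcl10 (r = 0.936), Vim (r = 0.935), Anxa2 (r = 0.934). Vim encodes vimentin, a filament protein of mesenchymal and motile cells. S100a11 was closest to Sec61g (r = 0.955), Psma7 (r = 0.942), Anxa2 (r = 0.940), of which Psma7 is a proteasome subunit. S100a10 was closest to S100a11 (r = 0.919), Pgk1 (r = 0.911), Psma3 (r = 0.904). S100a6 was closest to Psma5 (r = 0.974), Arl1 (r = 0.962), Eif6 (r = 0.959). S100a13 was closest to Psmb3 (r = 0.969), Ndufa13 (r = 0.960), Cox7c (r = 0.951), of which Psmb3 is a proteasome subunit and Ndufa13 and Cox7c belong to the respiratory chain. S100a1 was closest to Bag1 (r = 0.951), Spp1 (r = 0.934), Hsd17b12 (r = 0.932), of which Spp1, osteopontin, is a secreted protein of macrophages. S100a8 was closest to Slc7a11 (r = 0.869), Trem1 (r = 0.835), Cklf (r = 0.825), where Trem1 is a receptor of myeloid cells. For S100a9 the closest were S100a8 (r = 0.899), Cklf (r = 0.707), Il12b (r = 0.697), whose 9 points in library 1 are all at 0 CPM.

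The other S100 genes were scarce. Of 9 further family genes in the features, none had 100 UMIs in the macrophage, monocyte, T or NK gates. S100a16 stood at 93.8 and 39.8 CPM in Ptprc-low cells, S100a3 at 4.71 and 8.84 CPM and S100a5 at 4.32 and 17.8 CPM. In library 2 these 3 of 4 measured family genes were past 2-fold higher in Ptprc-low cells than in leukocytes, against the 21.1% given above. S100a3 and S100a5 are the neighbours of S100a4 and S100a6.

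Receptors and oxidase subunits were read beside the members. Ager, the receptor for advanced glycation products, was at 0 and 0.544 CPM in Folr2- macrophages. Tlr4, the endotoxin receptor that calprotectin also engages, stood at 26.3 and 15.6 CPM in Folr2- macrophages and 14.7 and 8.96 CPM in monocytes. Bsg, a receptor for S100a9, stood at 489.6 and 643 CPM in Ptprc-low cells. Of 6 receptors, 0 of 4 measured in library 1 and 0 of 5 in library 2 were past 2-fold higher in monocytes than in macrophages, where 3.55% and 3.93% of all genes were. In library 2, 3 of 5 (Tlr4, Cd36 and Cd33) were lower in monocytes, where 18.7% of all genes were, and 0 of 4 in library 1 (9.01%). The NADPH oxidase, the superoxide-producing complex that calprotectin helps to supply with arachidonic acid, had 6 measured subunits, and none was past 2-fold between monocytes and macrophages in either library. Cybb stood at 1068 and 629 CPM in monocytes and 905 and 542 CPM in Folr2- macrophages. Against gated leukocytes, Ptprc-low cells were past 2-fold lower for 5 of 6 subunits in library 1 and 6 of 6 in library 2, where 22.3% and 24.6% of all genes were.

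Among the cytoskeletal and ligase partners of S100a4 and S100a6, Tpm1, a tropomyosin, stood at 1312 and 1405 CPM in Ptprc-low cells against 9.77 and 22.3 CPM in monocytes. Past 2-fold higher in Ptprc-low cells than in gated leukocytes were 4 of 6 measured partners in library 1 (Tpm1, Myh10, Trp53 and Cacybp) and 3 of 6 in library 2 (the same without Cacybp), where 25.8% and 21.1% of all genes were, and none was past 2-fold lower. Cacybp stood at 199 and 233 CPM in Ptprc-low cells and 146 and 165 CPM in NK cells, and Myh9, the myosin heavy chain that S100a4 binds, at 228 and 144 CPM and 376 and 296 CPM. Between libraries in T cells, 1 of 5 of these partners (Tpm1), 3 of 7 annexin and plasminogen genes (Anxa1, Anxa2 and Ahnak), 5 of 6 oxidase subunits and 2 of 8 other EF-hand genes (Calm3 and Capns1) were past 2-fold higher in library 2, against the 21.1% of all genes given above. The corresponding count over the members was 8 of 8. All these counts are from the pooled T gate, which mixes subset makeup with level. Within subsets the members' count was 7 of 8 in CD8 T cells, 4 of 5 in regulatory T cells and 2 of 6 in other T cells. One cell held 46.6% of the S100a8 and 66.4% of the S100a9 UMIs of T cells in library 2.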

How the data were processed

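Single-cell 3′ RNA sequencing was done on CD45-selected tumour cells. The authors deposited 1 matrix of raw UMI counts, made with Cell Ranger 3.1.0 against mm10, per the submitters' processing notes and the file headers. The sources used here do not state the annotation, the cell-calling rule or the strand of counting. The deposited counts have no normalization. Barcodes below 4166 and 4810 UMIs are not in the matrix.

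Cells needed 200 genes, 500 UMIs and at most 10% mitochondrial UMIs, and 79 and 95 barcodes lay above the mitochondrial limit. Scrublet (scanpy 1.11.5) was run per library; its automatic threshold marked 0% of barcodes, so the 5% with the highest scores (266 and 359) were removed. Gates were set from marker lists with limits chosen after the data were seen, and cells with markers of 2 lineages stayed unassigned. The members and gene lists were chosen with earlier results of these data known. Ratios carry exact conditional binomial 95% intervals, a zero was set to 3 counts, shares were taken after thinning to 4000 UMIs (no cell is shallower) and levels are CPM. All intervals cover counting error only, and no test was run. The ratio rule was tested on simulated data. Named genes are the members, the fixed lists and, for each member, the 3 genes with the highest Pearson correlation. Positions and transcripts are from GENCODE M21 and promoter windows from RefSeq (GRCm38.p6); 7 of 8 members matched. Alternatives varied doublets, mitochondrial limit, depth, weighting, scaling, free RNA and the UMI minimum.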

Additional observations from a re-analysis of the deposited data

How the results depend on the processing

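The count of members with the same leading gate in both libraries was 6, and between 6 and 7 under the alternatives. The count past 2-fold between libraries was 2 in macrophages under every alternative run, and 8 in T cells under every one but the following. Without the cell of each gate and library richest in S100a8 and S100a9, an alternative chosen after the data were seen, the T cell count was 7 and the monocyte count 1 in place of 2, because the 76 and 82 S100a9 UMIs left fell under the minimum of 100, while S100a9 was still at least 30.5-fold and 4.90-fold higher in library 2. In NK cells the count of 0 was 1 with cells of 2 lineages kept, 1 with a mitochondrial maximum of 5% and 1 with the highest Scrublet scores kept; the cause was not tested. Of 268 log2 ratios of single members under alternatives, 245 were classed as unchanged, 23 as moved and 0 as reversed. With a zero count the unchanged class does not mean within the counting interval. S100a9 in macrophages was classed as unchanged without the richest cell, yet its log2 ratio went from -4.723 to -3.042, outside its interval bound of -4.419. Of 1008 levels, 830 were classed as unchanged and 178 as moved. Depth limits S100a8, S100a9 and S100a1, which rest on few UMIs in most gates of library 1. No paired analysis was possible because each group has 1 library and the libraries are not mapped to groups.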
